A study of Homo sapiens with 12 samples.

Results

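FYN, SRC, YES1 and LYN are Src-family kinases (SFKs), CSK is the kinase that holds them in check, and PTK2, PXN, BCAR1 and CAV1 encode proteins that work beside them where a cell grips its surroundings. These 9 genes were taken by name from a table of 65975 gene identifiers, without use of any measured value. RNA had been sequenced from rhabdomyosarcoma (RMS) cell lines, tumors of the skeletal muscle lineage, in 12 libraries that form 4 groups of 3. RD is a fusion-negative line (FN-RMS) and Rh30 a fusion-positive line (FP-RMS). Each line had been transduced with lentivirus for a non-targeting shRNA (Scramble) or for 1 shRNA against the histone demethylase KDM3A (KDM3A-sh2), and all 4 groups had been selected in 1 µg/ml puromycin. RD was kept in DMEM and Rh30 in RPMI, so line and medium cannot be told apart, and with 1 shRNA and no rescue, loss of KDM3A and other effects of that hairpin cannot be told apart either. Whether the libraries of a group are separate cultures is not stated in the sources used here, and p-values then measure only the spread between these libraries, which may be technical.

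SFKs are tyrosine kinases held at the inner face of the plasma membrane. CSK phosphorylates a tyrosine in their tail, which folds the kinase into its inactive form. At focal adhesions, integrin binding brings focal adhesion kinase (FAK, the product of PTK2) and an SFK together, and the pair phosphorylates scaffolds such as paxillin (PXN) and p130Cas (BCAR1), from which signals for cell spreading and migration start. Caveolin-1 (CAV1), the coat protein of the membrane pits called caveolae, binds SFKs and is itself one of their substrates. Only RNA was measured here, and SFK and FAK activity is set by phosphorylation of the proteins, about which these values say nothing.

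Levels are given in FPKM, fragment numbers corrected for how long a gene's exons are and for how many reads its library had, which allows genes to be set side by side. Summed FPKM ran from 1198300 to 1379197 per library, between 17473 and 17983 genes reached 1 FPKM, and the depth of a library relative to the others, read from the spacing of its lowest values, was 0.858 to 1.19. Read counts cannot be had from FPKM. Of 6 muscle lineage markers, 1 (MYF5) was under 1 FPKM in every group, and the 6 summed to 2750 to 4010 FPKM per library. All 5 blood markers were under 1 FPKM in every group, as were all 3 endothelial and all 3 epithelial markers in RD and 2 of 3 of each in Rh30, where the sums reached 1.83 FPKM for endothelial and 7.13 FPKM for epithelial markers. KDM3A was 35.8, 33.9 and 30.9 FPKM in the RD Scramble libraries and 12.0, 11.2 and 13.4 FPKM with KDM3A-sh2, and 27.8, 29.2 and 32.0 FPKM in Rh30 Scramble and 13.7, 13.2 and 15.4 FPKM with KDM3A-sh2. The targeted RNA was therefore lower in every KDM3A-sh2 library, though not absent. In bulk RNA of this kind, fewer cells of a type and less RNA per cell cannot be told apart.

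FYN (ENSG00000010810; GRCh38, chromosome 6, 111660332 to 111873452, minus strand) was the most abundant SFK in RD. It was 217.0, 219.8 and 221.0 FPKM in the RD Scramble libraries and 199.2, 180.9 and 220.8 FPKM with KDM3A-sh2. The Rh30 Scramble libraries had 102.2, 102.1 and 112.1 FPKM and the Rh30 KDM3A-sh2 libraries 76.6, 79.5 and 87.8 FPKM. Every Rh30 library thus lay below every RD library, the Rh30 groups did not overlap, and in RD 1 KDM3A-sh2 library sat among the controls while the other two lay below them. The last exon of FYN, exon 11 of 11 in the transcript with its longest annotated 3′ UTR, holds 1 copy of a 7-base word that comes up again with PTK2, and the window around it, chr6:111661534-111661560 on the minus strand, is shown with the word in capitals.

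FYN 3′ UTR: acctcctctgTGAAGCAttcgagacag

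YES1 (ENSG00000176105; chromosome 18, 721588 to 812546, minus strand) had the opposite order between the lines. YES1, a broadly expressed SFK close to SRC, was 46.1, 43.9 and 41.9 FPKM in RD Scramble and 48.5, 54.1 and 54.5 FPKM in RD KDM3A-sh2. The Rh30 Scramble libraries had 87.2, 76.5 and 86.7 FPKM and those with KDM3A-sh2 88.0, 89.5 and 87.9 FPKM. Groups did not overlap in either line, though in Rh30 the nearest libraries of the 2 groups were less than 1 FPKM apart.

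SRC (ENSG00000197122; chromosome 20, 37344685 to 37406050, plus strand), the founding member of the family, was at a similar level in both lines. It was 32.9, 34.2 and 33.1 FPKM in RD Scramble and 30.7, 34.2 and 27.8 FPKM with KDM3A-sh2, groups that overlapped. In Rh30 the Scramble libraries had 35.6, 38.3 and 29.9 FPKM and the KDM3A-sh2 libraries 45.2, 41.3 and 41.7 FPKM, where all 3 KDM3A-sh2 libraries were above all 3 controls. LYN (ENSG00000254087; chromosome 8, 55879813 to 56014168, plus strand), an SFK best known from blood cells, stayed under 1 FPKM throughout, at 0.455 to 0.925 FPKM in RD and 0.0416 to 0.158 FPKM in Rh30, and was not tested. LCK, FGR and BLK, whose products are also known mainly from blood cells, had group means of at most 0.0726 FPKM, and FRK, a related kinase of epithelia, had 1.19 ± 0.03 FPKM in Rh30 Scramble and 1.71 ± 0.1 FPKM in Rh30 KDM3A-sh2 (SD, n = 3 each), a difference that did not pass the test (adjusted p = 0.107, limma). Of the SFK transcripts described here, those of FYN, YES1 and SRC led, with group means of at most 1.71 FPKM for the other 5 kinases.

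**Figure D1:**
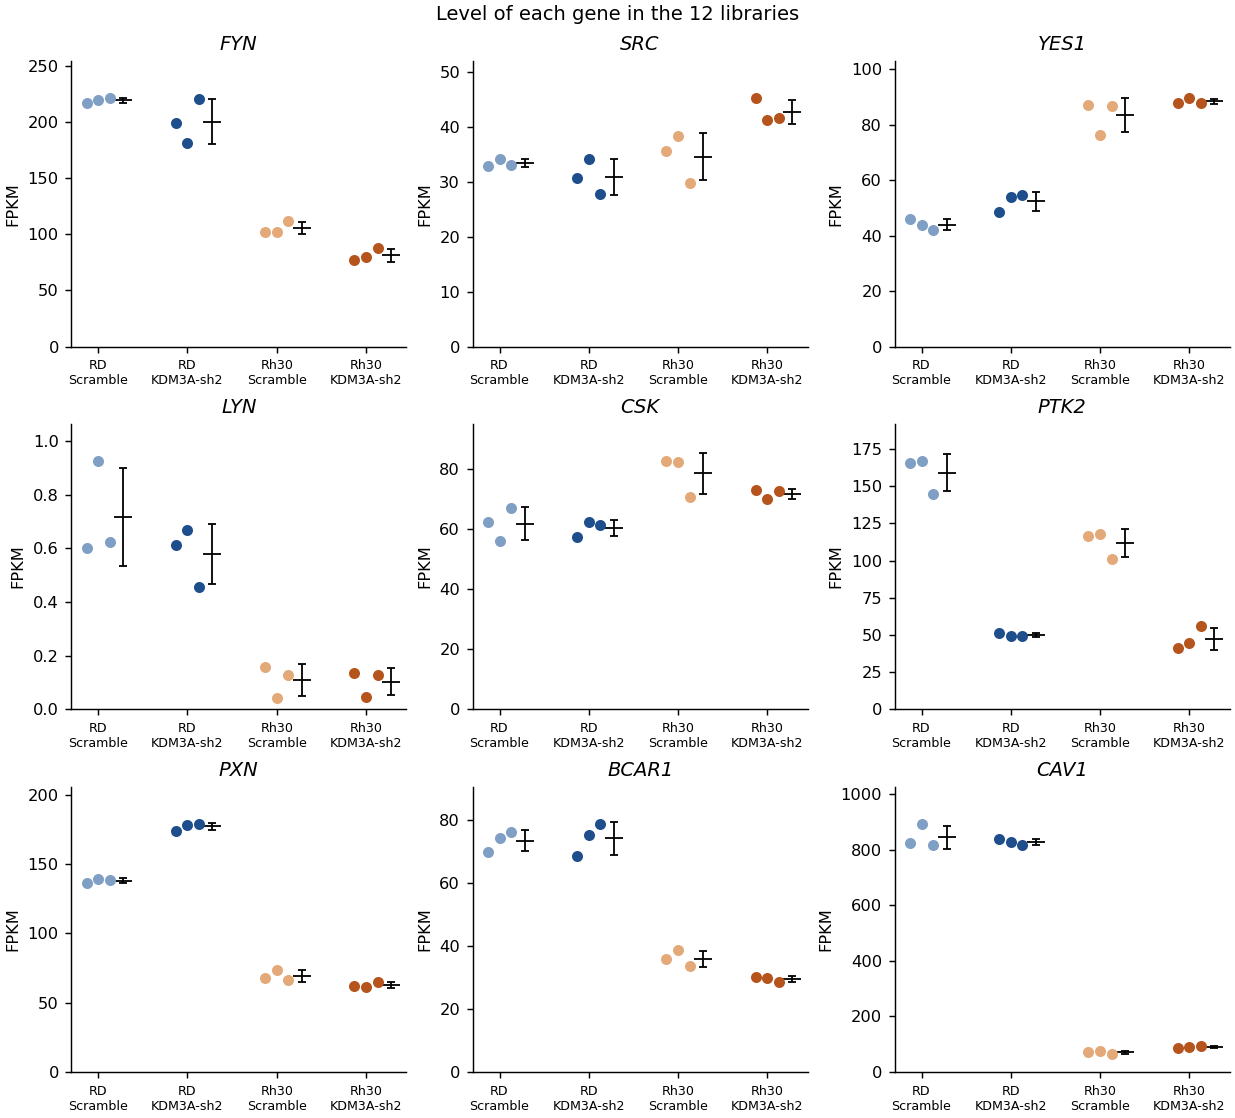
FPKM (linear axis from 0, a separate scale for each gene) of the 9 genes in the 12 libraries, with the points of a group beside a black bar for its mean ± SD (n = 3). PTK2 lies near 50 FPKM in both KDM3A-sh2 groups and above 100 in both Scramble groups, while FYN, PXN, BCAR1 and CAV1 mainly separate the lines.

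CSK (ENSG00000103653; chromosome 15, 74782057 to 74803198, plus strand) was 62.3, 56.1 and 66.9 FPKM in RD Scramble, 57.3, 62.3 and 61.4 FPKM in RD KDM3A-sh2, 82.6, 82.2 and 70.7 FPKM in Rh30 Scramble and 72.8, 69.8 and 72.6 FPKM in Rh30 KDM3A-sh2. The groups of each line overlapped, and each Rh30 library was above each RD library.

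PTK2 (ENSG00000169398; chromosome 8, 140657900 to 141002216, minus strand) varied with the shRNA more than any other of the 8 genes tested. It was 165.3, 166.9 and 144.6 FPKM in RD Scramble and 51.6, 49.0 and 49.2 FPKM in RD KDM3A-sh2. It was 116.8, 118.1 and 100.8 FPKM in Rh30 Scramble and 41.0, 44.9 and 55.8 FPKM in Rh30 KDM3A-sh2. In both lines the groups were far apart, and with KDM3A-sh2 the 2 lines overlapped. PTK2B, which encodes the FAK paralog PYK2, was under 2 FPKM on average in every group.

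PXN (ENSG00000089159; chromosome 12, 120210439 to 120265771, minus strand) was 136.4, 139.5 and 138.2 FPKM in RD Scramble and 174.0, 178.2 and 179.0 FPKM in RD KDM3A-sh2, and 67.7, 73.8 and 66.2 FPKM in Rh30 Scramble and 62.2, 61.2 and 65.0 FPKM in Rh30 KDM3A-sh2. KDM3A-sh2 libraries were all above the controls in RD and all below them in Rh30. The antisense gene PXN-AS1 overlaps PXN and reached 17.1 FPKM, and since the strand setting of the counting is not given in the sources used here, reads of the 2 genes may not be fully separated. BCAR1 (ENSG00000050820; chromosome 16, 75228187 to 75268053, minus strand) was 69.7, 74.4 and 76.1 FPKM in RD Scramble and 68.5, 75.1 and 78.8 FPKM with KDM3A-sh2, and 35.9, 38.6 and 33.5 FPKM in Rh30 Scramble and 30.1, 29.8 and 28.5 FPKM with KDM3A-sh2. Its groups overlapped in RD and were apart in Rh30.

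CAV1 (ENSG00000105974; chromosome 7, 116524785 to 116561184, plus strand) had the widest range. It was 824.4, 892.8 and 817.1 FPKM in RD Scramble and 839.2, 825.5 and 815.4 FPKM in RD KDM3A-sh2, against 70.7, 76.6 and 62.9 FPKM in Rh30 Scramble and 86.9, 89.8 and 95.1 FPKM in Rh30 KDM3A-sh2. CAV1 was the highest of the 9 genes in RD by a wide margin and only the fifth in Rh30 Scramble, where PTK2 and FYN led with overlapping values. With KDM3A-sh2, PTK2 went from the third to the seventh place in RD and from the first to the sixth in Rh30. These places are by group means. PTK2 overlapped with YES1 in RD KDM3A-sh2 and with SRC in Rh30 KDM3A-sh2, and CAV1 with CSK and PXN in Rh30 Scramble. The order of such neighbours is not resolved.

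The first comparison asked how the control cells of the 2 lines differ. Of the 8 genes tested, 5 were lower and 2 higher in Rh30 Scramble than in RD Scramble (limma on log2(FPKM + 1), adjusted p under 0.05), in a comparison that called 39.6% of 18357 genes lower and 35% higher. CAV1 was 12.1-fold lower in Rh30 (log2 fold change -3.58, SE 0.075, adjusted p = 4.46e-08), a value below which only 1.47% of the genes tested lay. FYN was 2.08-fold lower (log2 -1.05, SE 0.045, adjusted p = 1.08e-06), and BCAR1 (log2 -1.01) and PXN (log2 -0.99) differed by nearly the same amount. PTK2 was lower by less (log2 -0.50, adjusted p = 0.00105), YES1 was 1.9-fold higher (log2 0.91, adjusted p = 1.45e-05) and CSK was higher (log2 0.34, adjusted p = 0.00917). For SRC the log2 fold change was 0.04 (SE 0.09, adjusted p = 0.693), and -0.07 when libraries were scaled to equal sums. That scaling moved the median of all genes in this comparison from -0.04 to -0.14 and kept all 7 calls.

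The second comparison asked what changed in each line upon KDM3A knockdown. By the estimate of relative depth, each KDM3A-sh2 library was shallower than each Scramble library of its line (0.858 to 0.996 against 1.05 to 1.19 in RD, 0.944 to 0.996 against 1.00 to 1.02 in Rh30). For single pairs of libraries the estimate was off by up to 0.0323 on the log2 scale. The nearest libraries in Rh30, at 0.9956 and 1.0038, lie closer than that, so their order is not resolved. Of the 5 muscle markers tested, 3 fell and 2 rose in RD, and 2 fell and 2 rose in Rh30. The part of depth or of the muscle markers in the values that follow was not tested. In RD cells, 1 of the 8 genes fell and 2 rose, where 19.5% of 17988 genes were called lower and 21.6% higher, so the shares called lay near those of all genes. PTK2 fell 3.18-fold, from 158.9 ± 12.4 to 49.9 ± 1.41 FPKM (SD, n = 3 each; log2 -1.65, SE 0.062, adjusted p = 1.24e-05, limma). In this fit, 24 of the 17988 genes had a lower log2 fold change. PXN rose from 138 ± 1.51 to 177.1 ± 2.68 FPKM (log2 0.36, SE 0.03, adjusted p = 0.000193). YES1 rose from 44.0 ± 2.06 to 52.4 ± 3.32 FPKM (log2 0.25, SE 0.061, adjusted p = 0.0169), a call that was lost in 6 of 14 alternative analyses, with adjusted p of up to 0.0579.

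FYN in RD averaged 219.3 ± 2.07 FPKM in the controls and 200.3 ± 20 FPKM upon knockdown (SD, n = 3 each; log2 -0.13, SE 0.069, adjusted p = 0.163, limma). The result rested on KDM3A-sh2 replicate 3, the shallowest of the 12 libraries by the estimate of relative depth. Without that library the log2 fold change was -0.21 and passed the threshold (adjusted p = 0.021). SRC (log2 -0.11, adjusted p = 0.275), CSK (log2 -0.03, adjusted p = 0.76), CAV1 (log2 -0.03, adjusted p = 0.589) and BCAR1 (log2 0.01, adjusted p = 0.889) did not pass it.

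In Rh30 cells, 3 of the 8 genes fell and 1 rose, where 13.2% of 17803 genes were called lower and 15.3% higher. No test of these shares was made, and with 8 genes each gene counts for much of them. PTK2 fell 2.37-fold, from 111.9 ± 9.64 to 47.2 ± 7.67 FPKM (SD, n = 3 each; log2 -1.24, SE 0.119, adjusted p = 0.000759, limma), with 107 genes at a lower log2 fold change. FYN fell 1.3-fold, from 105.5 ± 5.71 to 81.3 ± 5.8 FPKM (log2 -0.37, SE 0.064, adjusted p = 0.00691), and this call held in all 14 alternative analyses. BCAR1 fell from 36.0 ± 2.54 to 29.5 ± 0.856 FPKM (log2 -0.28, SE 0.061, adjusted p = 0.0173), a call lost without Scramble replicate 1 (adjusted p = 0.0514), without KDM3A-sh2 replicate 3 (0.0551) and in a separate linear model of each gene on unlogged FPKM (0.059).

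CAV1 rose in Rh30 from 70.0 ± 6.88 to 90.6 ± 4.15 FPKM (SD, n = 3 each; log2 0.37, SE 0.076, adjusted p = 0.0134, limma), and the separate models of unlogged FPKM gave an adjusted p of 0.0533. SRC was at the threshold. Its mean was 34.6 ± 4.31 FPKM in the controls and 42.7 ± 2.15 FPKM upon knockdown (log2 0.30, SE 0.093, adjusted p = 0.0504), and it passed in 4 of 14 alternative analyses, 1 of them without Scramble replicate 2 (adjusted p = 0.033). PXN (log2 -0.14, adjusted p = 0.0957), CSK (log2 -0.12, adjusted p = 0.203) and YES1 (log2 0.09, adjusted p = 0.303) did not pass, although the PXN and YES1 groups did not overlap. CSK passed without Scramble replicate 3 (log2 -0.20, adjusted p = 0.0195), and PXN in a fit of all 12 libraries (adjusted p = 0.0261).

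**Figure D2:**
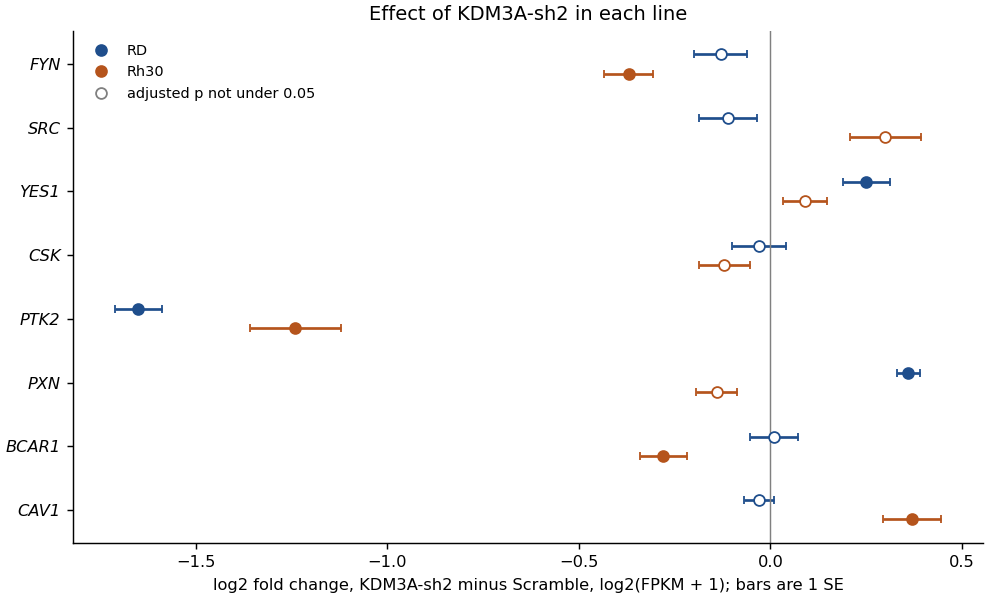
Log2 fold change of KDM3A-sh2 against Scramble on log2(FPKM + 1) for the 8 genes tested, in RD (blue) and Rh30 (orange), with bars of 1 SE and open symbols where the adjusted p was not under 0.05. PTK2 stands far to the left in both lines at -1.65 and -1.24, and the other values lie between -0.37 and 0.37.

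PTK2 was thus the gene called lower in both lines, and it was called in each of the 14 alternative analyses per line. Over those analyses its log2 fold change was -1.72 to -1.61 in RD and -1.36 to -1.14 in Rh30. Its place counted from the lowest log2 fold change was less firm, at 25 in RD and 108 in Rh30. With 0.1 in place of 1 added to FPKM before the log, its place was 134 in RD and 249 in Rh30. With 1 library left out, the place was 28 to 52 in RD and 101 to 156 in Rh30. An exact permutation test of 3 libraries against 3 reaches no p under 0.1, and the smaller values here rest on a model of the errors, in limma as in a separate linear model of each gene.

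The third comparison tested whether the knockdown effect itself differed between the lines, by the interaction of shRNA and line over all 12 libraries. Of the 8 genes, 2 had a lower and 2 a higher effect in Rh30, where 13.4% of 18517 genes were called lower and 14.4% higher. With libraries scaled to equal sums, 3025 of all genes were called lower and 2079 higher, in place of 2486 and 2665. PXN differed most among these genes, by -0.50 on the log2 scale (SE 0.059, adjusted p = 0.000142, limma), and the call held in all 19 alternative analyses. CAV1 differed by 0.40 (SE 0.091, adjusted p = 0.00758), SRC by 0.42 (SE 0.129, adjusted p = 0.0334) and BCAR1 by -0.29 (SE 0.089, adjusted p = 0.0329). The SRC call was lost in 9 and the BCAR1 call in 10 of 19 alternative analyses, mostly where 1 library was left out. CAV1 lost its call once, in the separate models of unlogged FPKM, where the difference is not one of folds. The effects on PTK2 (0.41, SE 0.146, adjusted p = 0.0576), FYN (-0.24, SE 0.101, adjusted p = 0.106), YES1 (-0.16, adjusted p = 0.197) and CSK (-0.09, adjusted p = 0.543) were not shown to differ, so for FYN the call in Rh30 and its absence in RD are no evidence of a difference between the lines. Without RD KDM3A-sh2 replicate 2, however, the difference for FYN was -0.31 and passed (adjusted p = 0.0309), and PTK2 passed in 4 of the 19 alternatives, for example without Rh30 KDM3A-sh2 replicate 1 (0.51, adjusted p = 0.0231).

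The balance among the SFK transcripts was compared within libraries, where scaling between libraries cancels. FYN made up 73.2, 73.5 and 74.5% of the summed FPKM of FYN, SRC, YES1 and LYN in the RD Scramble libraries, and 71.4, 67.0 and 72.7% with KDM3A-sh2. In Rh30 it made up 45.4, 47.1 and 49.0% with Scramble and 36.5, 37.8 and 40.4% with KDM3A-sh2. In both lines every KDM3A-sh2 library had a smaller FYN share than every control (exact permutation p = 0.1 in each line, two-sided, the smallest that 3 against 3 allow), with a difference of -3.35 percentage points in RD and -8.94 in Rh30. In RD the size of the difference rested on KDM3A-sh2 replicate 2, without which it was -1.67 points.

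In RD the YES1 share was larger by 3.67 percentage points with KDM3A-sh2, and in Rh30 the YES1 share was larger by 4.33 and the SRC share by 4.61 points. The mean share of YES1 was 14.8 ± 0.705% in RD Scramble and 18.5 ± 1.39% in RD KDM3A-sh2, and 37.3 ± 1.82% and 41.6 ± 1.11% in Rh30 (SD, n = 3 each), with no overlap in either line (exact permutation p = 0.1 in each). In Rh30 KDM3A-sh2 YES1 was thus the leading SFK transcript on average, with a share above that of FYN in all 3 libraries, by as little as 40.4% against 40.37% in replicate 3. SRC had 11.2 ± 0.192% in RD Scramble and 10.95 ± 1.76% in RD KDM3A-sh2, groups that overlapped, and 15.5 ± 2.32% and 20.1 ± 1.25% in Rh30, groups that did not (exact permutation p = 0.7 and 0.1).

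The summed level of the 4 kinases differed little with the shRNA. It was 297.4 ± 1.3 FPKM in RD Scramble and 284.2 ± 17.4 FPKM in RD KDM3A-sh2 (exact permutation p = 0.4), and 223.6 ± 6.06 and 212.6 ± 4.22 FPKM in Rh30 (SD, n = 3 each; exact permutation p = 0.2). Set against their inhibitor, log2(FYN/CSK) was 1.83 ± 0.127 in RD Scramble and 1.73 ± 0.166 in RD KDM3A-sh2, and 0.43 ± 0.204 and 0.18 ± 0.0998 in Rh30 (exact permutation p = 0.5 and 0.1). The difference of -0.25 in Rh30 was -0.13 without Scramble replicate 3. The log2 ratio of the summed kinases to CSK was 2.27 and 2.24 in RD and 1.51 and 1.57 in Rh30, and groups overlapped in both lines. Between the lines the difference was wider, since that log2 ratio was lower in Rh30 Scramble than in RD Scramble by 0.757, with no overlap (exact permutation p = 0.1).

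**Figure D3:**
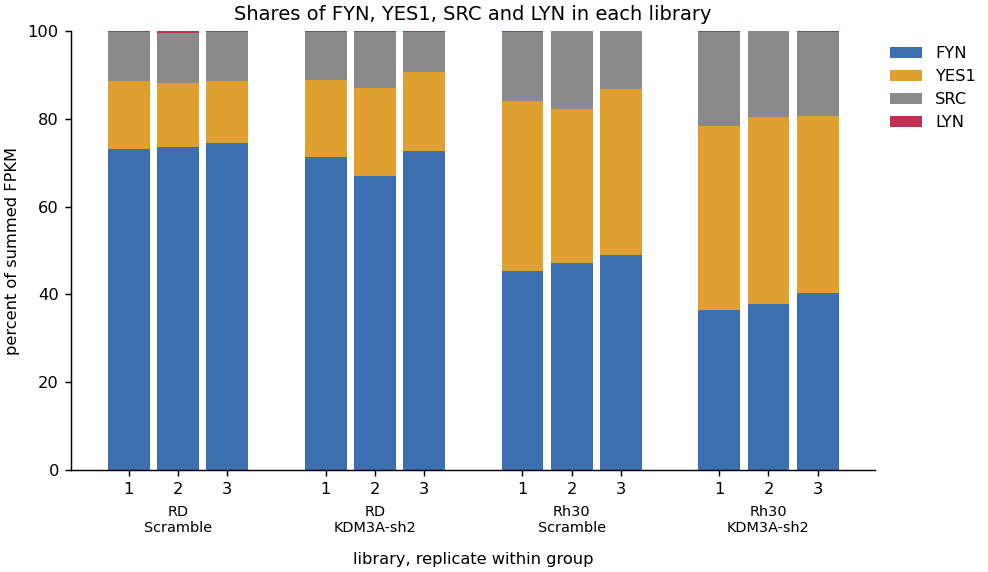
Stacked bars, 1 per library, of the percent of summed FPKM of FYN, YES1, SRC and LYN that each kinase held, from 0 to 100%. FYN holds 67.0 to 74.5% in RD and 36.5 to 49.0% in Rh30, is smaller in the KDM3A-sh2 libraries of each line, and LYN is barely visible.

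To see whose pattern was most like that of FYN, each gene with a mean of at least 10 FPKM (11016 genes) was centred on its own mean over the 12 libraries, and the root mean square difference of log2(FPKM + 1) was taken. The nearest were YWHAZP3, a pseudogene of YWHAZ whose reads may come from its parent gene, at 0.0767, REEP3 at 0.0796 and AGPAT4 at 0.0842. REEP3 encodes a protein of the endoplasmic reticulum, and AGPAT4 an acyltransferase of phosphatidic acid synthesis. Among the other members, BCAR1 (0.126) and PXN (0.214) were nearest to FYN, and CAV1 was farthest (1.14). For CAV1 the nearest were KCTD12 (0.0954), GJA1 (0.121), which encodes the gap junction protein connexin 43, and TSPYL5 (0.153). GJA1 was 50.8 FPKM in RD Scramble and 3.85 FPKM in Rh30 Scramble, so the likeness reflects mainly the contrast between lines. For PTK2, added after its values were seen, the nearest were CANX at 0.2, RAB11B at 0.213 and KDM3A at 0.23. CANX, which encodes the chaperone calnexin, was 465 FPKM in RD Scramble and 192 FPKM in RD KDM3A-sh2, and 353 and 184 FPKM in Rh30, and RAB11B, a GTPase of endosome recycling, was 129 and 40.2 FPKM in RD and 81.7 and 47.4 FPKM in Rh30.

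PTK2 and CANX also share the word shown for FYN. Earlier results of these data had pointed to TGAAGCA in the 3′ UTRs of genes called lower, and here it was counted on the sense strand in the longest annotated 3′ UTR of each gene (GENCODE 29, overlapping copies allowed). It occurs 3 times in the 1566 bases of the PTK2 3′ UTR, starting at bases 392, 615 and 892, and once in the 1407 bases of that of FYN, at base 189. The 3′ UTRs of SRC, YES1, LYN, CSK, PXN, BCAR1 and CAV1 hold no copy, CANX has 3, RAB11B 1, REEP3 1 and AGPAT4 2. Among genes with a 3′ UTR of similar length, 13.6% hold at least 1 copy at the length of PTK2 and 12.0% at that of FYN. Over the whole transcripts, SRC had 2 copies, BCAR1 1, FYN 3 and PTK2 4, and YES1, LYN, CSK, PXN and CAV1 had none. The share of all genes with copies outside the 3′ UTR was not counted. KDM3A has no copy in its own 3′ UTR of 597 bases but 2 upstream of it, in exon 6 of its transcript with the longest 3′ UTR (chr2:86455145-86455171, plus strand) and exon 13 of 27 (chr2:86474832-86474858, plus strand), shown in the same way because KDM3A is the target of the hairpin.

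KDM3A exon 6: gctttgattgTGAAGCAtttagatgaa

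KDM3A exon 13: agtatgacaaTGAAGCAattggcttgt

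In RD, 16.7% of the 12404 tested genes with a 3′ UTR held the word, against 22.5% of those called lower and 12.2% of those called higher. In Rh30 the shares were 16.9% of 11878 genes, 29.2% of those lower and 11.1% of those higher. The word was chosen from genes called lower in these same data, so these shares only describe it and are no independent evidence. They were not matched for 3′ UTR length, and no other word was counted. Only 73 genes had at least 3 copies, as PTK2 does, and their median log2 fold change was -0.11 in RD and -0.16 in Rh30, against 0.03 and 0.04 for genes with none. These genes have longer 3′ UTRs, with a median of 7539 bases against 1149 in RD and 1169 in Rh30 for genes with none. Genes with 1 copy, as FYN has, also had longer ones, with medians of 2945 bases in RD and 2953 in Rh30. The change of PTK2 lies far below the lower quartile of the 73 genes, which was -0.40 in RD and -0.37 in Rh30. The sequence of the hairpin is not given in the sources used here, and any part of this word in the PTK2 or FYN values was not tested.

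**Figure D4:**
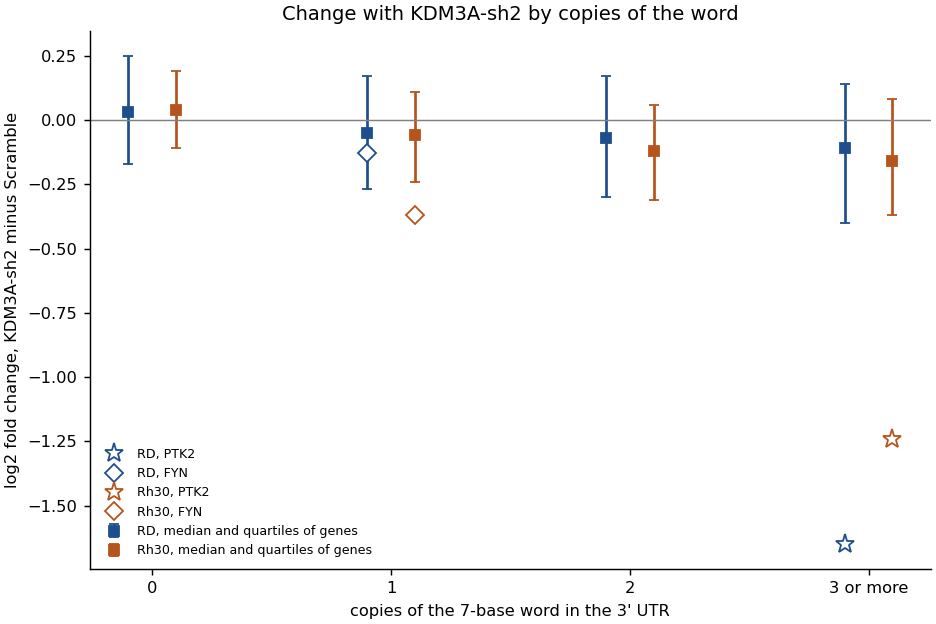
Log2 fold change of KDM3A-sh2 against Scramble (medians as squares, bars from lower to upper quartile) of genes by the number of copies of the 7-base word in the longest 3′ UTR, in RD (blue) and Rh30 (orange), with PTK2 as a star and FYN as a diamond. The RD medians go from 0.03 to -0.11, the Rh30 medians from 0.04 to -0.16, and PTK2 lies well below its class in both lines. The word was chosen from earlier results of these data.

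Around the members, 85 further genes were taken from hand-written lists of SFK regulators, focal adhesion scaffolds, caveolar coat proteins and Src substrates. In RD, 9 of the 70 tested fell and 28 rose, and in Rh30, 25 of 69 fell and 8 rose. Of all genes tested, 19.5% fell and 21.6% rose in RD, and 13.2% fell and 15.3% rose in Rh30. The median log2 fold change was 0.11 and -0.002, beside 0.007 and 0.031 over all genes tested. The lists were written with earlier results of these data known, and the counts are descriptions.

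Focal adhesion scaffolds and linkers, listed with adaptors and regulators that act beside them, made up the longest list. In RD, 5 of 39 fell and 15 rose (median log2 0.079), and in Rh30, 16 of 36 fell and 2 rose (median log2 -0.142), beside the 19.5% lower and 21.6% higher of all genes in RD and the 13.2% and 15.3% in Rh30. ZYX, which encodes the adhesion protein zyxin, rose in RD from 201.9 ± 5.6 to 287.3 ± 7.09 FPKM (SD, n = 3 each; log2 0.51, adjusted p = 9.03e-05, limma), with a log2 fold change of 0.14 in Rh30 (adjusted p = 0.061). VCL (vinculin, which links talin to actin) fell in both lines, from 182.5 ± 2.77 to 153.5 ± 1.21 FPKM in RD (log2 -0.25, adjusted p = 0.000795) and from 41.0 ± 1.4 to 27.5 ± 1.55 FPKM in Rh30 (log2 -0.56, adjusted p = 0.000879). BCAR3, which encodes a protein that binds p130Cas, rose in RD from 89.4 ± 4.41 to 102.5 ± 2.66 FPKM (log2 0.20, adjusted p = 0.0142) and fell in Rh30 from 34.6 ± 3.09 to 23.0 ± 1.12 FPKM (log2 -0.57, adjusted p = 0.00247). The RD call of BCAR3 was lost without KDM3A-sh2 replicate 2 (adjusted p = 0.0508).

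GIT1 and ARHGEF7 (β-PIX), which form a complex that binds paxillin, fell in RD from 44.1 ± 2.46 to 32.3 ± 0.754 FPKM (log2 -0.44, adjusted p = 0.000832, limma) and from 31.7 ± 0.43 to 24.1 ± 0.224 FPKM (log2 -0.38, adjusted p = 0.000543; SD, n = 3 each). Both also fell in Rh30, by 0.17 (adjusted p = 0.0289) and 0.24 (adjusted p = 0.00969) on the log2 scale, and the GIT1 call was lost in 6 of 14 alternatives. TNS1, the actin linker tensin 1, differed between the lines by -0.95 on the log2 scale (adjusted p = 8.75e-05). It rose in RD from 37.8 ± 0.754 to 44.4 ± 2.1 FPKM (adjusted p = 0.0099) and fell in Rh30 from 8.84 ± 0.957 to 4.95 ± 0.334 FPKM (adjusted p = 0.00287). CASS4, of the p130Cas family, differed by -0.81 (adjusted p = 0.000392), being 15.0 and 15.5 FPKM in RD and 9.13 and 4.93 FPKM in Rh30. Over all scaffolds tested for such a difference, 16 of 40 had a lower effect in Rh30 and 2 a higher one, beside 13.4% and 14.4% of all genes. The number that rose in RD was 9 without RD KDM3A-sh2 replicate 2, and the number that fell in Rh30 was 10 without Rh30 Scramble replicate 1. At the same settings, calls among all genes also dropped, from 3879 to 3199 higher in RD and from 2347 to 1620 lower in Rh30.

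Genes of the caveolar coat rose in RD in 5 of 8 cases and fell in 1 (median log2 0.335), beside 21.6% and 19.5% of all genes, though CAV1 itself did not pass the test there. EHD2, the ATPase at the neck of caveolae, rose from 91.0 ± 4.12 to 164.3 ± 5.67 FPKM in RD (log2 0.85, adjusted p = 3.66e-05, limma) and from 21.4 ± 0.728 to 27.3 ± 0.572 FPKM in Rh30 (log2 0.34, adjusted p = 0.00357; SD, n = 3 each). CAV2, the partner of CAV1 in the coat, rose in RD from 59.3 ± 3.13 to 84.2 ± 2.73 FPKM (log2 0.50, adjusted p = 0.000378), and had a log2 fold change of 0.10 in Rh30 (adjusted p = 0.165). PTRF (cavin-1, without which caveolae do not form) rose in RD (log2 0.29, adjusted p = 0.000298) and fell in Rh30 (log2 -0.42, adjusted p = 0.000644). SDPR (cavin-2) was 0.643 and 1.74 FPKM in RD, low values between which the rise was called (log2 0.74, adjusted p = 0.00392). It is among the 5 that rose there. In Rh30 SDPR fell from 37.2 ± 0.548 to 21.0 ± 0.637 FPKM (log2 -0.79, adjusted p = 0.00014), and its effect differed between the lines by -1.53 (adjusted p = 6.96e-07). Over alternatives the RD value ran from 0.70 to 1.31 and the difference from -2.13 to -1.49.

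MURC (cavin-4) rose in RD (log2 0.38, adjusted p = 0.00109, limma) and had a log2 fold change of 0.00 in Rh30 (adjusted p = 0.993), and its effect differed between the lines by -0.38 (adjusted p = 0.00213). CAV3, the caveolin of muscle, was 6.63 ± 0.432 FPKM in RD Scramble and 80.0 ± 1.65 FPKM in Rh30 Scramble (SD, n = 3 each), the reverse of CAV1. It rose in Rh30 to 90.7 ± 3.54 FPKM (log2 0.18, adjusted p = 0.021), a call lost in 5 of 14 alternatives, and the difference between the lines in its effect, 0.07 on the log2 scale, did not pass the test (adjusted p = 0.606). Of the membrane-bending proteins PACSIN2 and PACSIN3, PACSIN3 fell in RD (log2 -0.36, adjusted p = 0.0118), and PACSIN2 did not pass in either line. PRKCDBP (cavin-3) was under 1 FPKM throughout. In Rh30, 2 of 8 coat genes fell and 2 rose (median log2 0.016), beside 13.2% and 15.3% of all genes. The effect was lower in Rh30 than in RD for 5 of 8 coat genes and higher for 0, beside 13.4% and 14.4% of all genes tested for such a difference.

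Of the SFK phosphatases and adaptors, 3 of 9 rose and none fell in RD, and 2 of 10 fell and 2 rose in Rh30, among them CBLB, a ubiquitin ligase for active kinases (log2 0.23, adjusted p = 0.0392, limma), whose call was lost in 10 of 14 alternatives. Of the Src substrates, 3 of 14 fell and 5 rose in RD, and 5 of 14 fell and 2 rose in Rh30. These counts stood beside 19.5% lower and 21.6% higher of all genes in RD and 13.2% and 15.3% in Rh30, and the 3 substrates lower in RD and the 2 higher in Rh30 were near those shares. SH3PXD2A (TKS5, the scaffold of invadopodia) fell in RD from 25.9 ± 0.602 to 14.7 ± 0.277 FPKM (log2 -0.78, adjusted p = 5.96e-05) and in Rh30 from 6.77 ± 0.587 to 4.38 ± 0.0187 FPKM (log2 -0.53, adjusted p = 0.00557; SD, n = 3 each). CTTN (cortactin, an activator of branched actin) rose in RD (log2 0.33, adjusted p = 0.00344) and in Rh30 (log2 0.26, adjusted p = 0.027), where 8 of 14 alternatives lost the call.

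**Figure D5:**
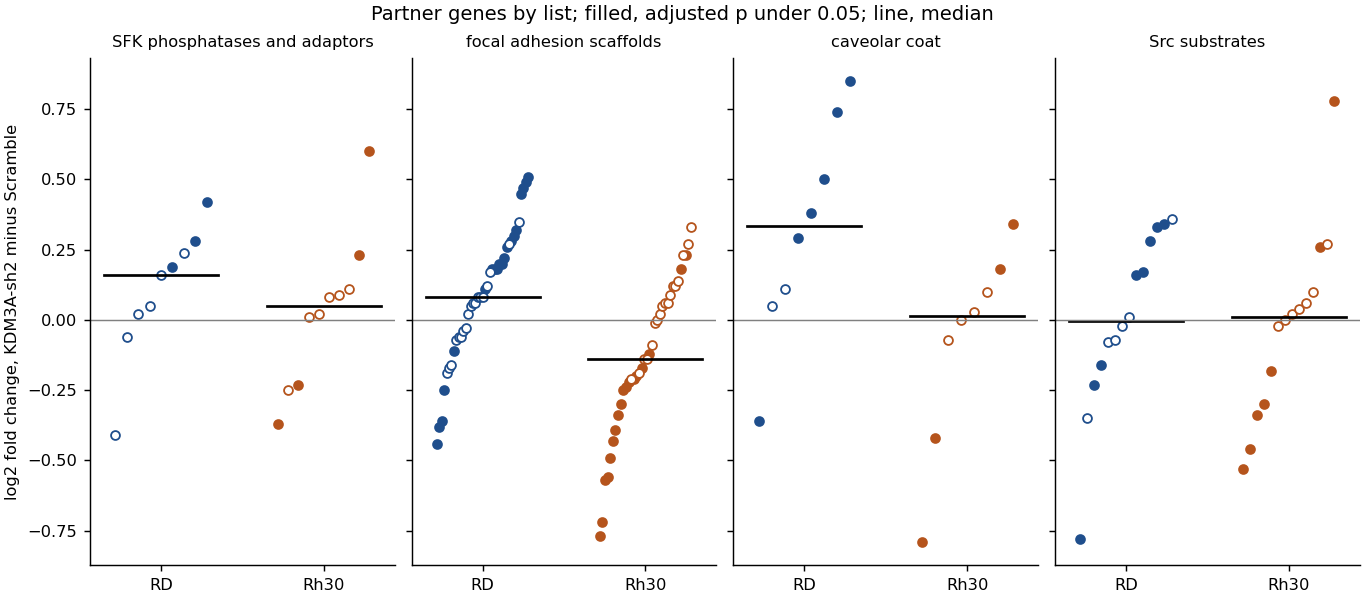
Log2 fold change of KDM3A-sh2 against Scramble for each tested gene of 4 lists, ordered by value within RD (blue) and Rh30 (orange), with filled points for adjusted p under 0.05 and a black line at the median. The scaffold median is 0.079 in RD and -0.142 in Rh30, and that of the caveolar coat 0.335 and 0.016.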

How the data were processed

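Directional libraries of polyA RNA from 12 samples were sequenced from 1 end, with 151 bases in the labels and shorter reads in the Methods. The authors aligned reads to GRCh38 with GSNAP, used SAMtools and computed the deposited FPKM with Cufflinks. The annotation release and strand setting are not given in the sources used here. The table lists 66095 entries, of which 120 were left out because 117 identifiers appear repeatedly and 1 entry of each, that of higher mean, was used. The value 999999999, found in 17 genes, was treated as missing, and a gene missing in any library of a fit was left out of it.

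Each comparison was fitted with limma 3.58.1 (R 4.3.3, eBayes with trend) on log2(FPKM + 1), without counts, over all genes averaging 1 FPKM or more, two-sided, with Benjamini-Hochberg adjustment over all of them and calls at adjusted p under 0.05. The fits were also run on simulated libraries with independent errors and far fewer changed genes than were called here. That run cannot vouch for the calls in these data. The line comparison shares its Scramble libraries with the other comparisons. Within-library shares and ratios were compared by two-sided exact permutation tests in SciPy 1.17.1. Positions and 3′ UTRs came from GENCODE 29.

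The members, lists and tests were chosen with earlier results of these data known. Named genes are the 9 members, KDM3A, the 3 partner genes with the largest called change per line and direction (mean of at least 10 FPKM, groups apart), the 3 with the largest difference between lines, the other SFKs, the caveolar coat and the 3 genes most like FYN and CAV1. A gene within this rule is not reported here. PTK2B was named, and the genes most like PTK2 were added, after values were seen. Alternatives were another pseudocount, filters, equal library sums, ANOVA, no trend, 1 fit of all libraries, a replicate block, a 1.5-fold minimum and leaving out each library.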

Additional observations from a re-analysis of the deposited data

Results flagged for a closer look

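For 4 of the 8 tested genes the effect of KDM3A-sh2 differed between the lines. The test was of the difference itself (the shRNA by line interaction, limma, 12 libraries), and it called 27.8% of 18517 genes. KDM3A itself was called as falling less in Rh30 than in RD, a call lost in 12 of 19 alternative analyses. Its part in the differences that follow was not tested. The log2 effect on PXN was 0.36 in RD and -0.14 in Rh30, a difference of -0.50 (adjusted p = 0.000142). The PXN groups were apart in both lines, in opposite directions, but the effect in Rh30 did not itself pass the test (adjusted p = 0.0957, limma). The effect on CAV1 was -0.03 in RD and 0.37 in Rh30, a difference of 0.40 (adjusted p = 0.00758), from a control level 12.1-fold lower in Rh30. The effect on SRC was -0.11 and 0.30, a difference of 0.42 (adjusted p = 0.0334), and that on BCAR1 was 0.01 and -0.28, a difference of -0.29 (adjusted p = 0.0329). The last 2 rest on small changes, and each was lost in about as many alternative analyses as kept it.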

How the results depend on the processing

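Over 488 values of the 8 tested genes under alternatives, 446 kept their direction where called and their side of the threshold, 30 lost and 12 gained a call, and none reversed. For KDM3A and 18 named partner genes, 1079 of 1152 did so, 60 lost and 13 gained a call, and none reversed. In RD 3 members were called, and 1 with a 1.5-fold minimum. In Rh30 4 were called, 2 by a separate linear model of each gene on unlogged FPKM, 1 with a 1.5-fold minimum, 6 in a fit of all 12 libraries and 3 to 5 with 1 library left out. For the difference between lines 4 were called, 2 without a filter on low values, 0 with a 1.5-fold minimum (4 without that minimum), and 2 to 4 with 1 library left out. FYN in RD ran from -0.207 to -0.0639 with 1 library left out. With 1 library left out, scaffolds called higher in RD numbered 9 to 12 (15 with all), lower in Rh30 10 to 15 (16 with all) and higher in Rh30 0 to 3 (2 with all, by limma at adjusted p under 0.05). Calls among all genes dropped as well, to 3174 to 3453 higher in RD (3879 with all libraries). In Rh30, calls among all genes were 1594 to 1944 lower (2347 with all) and 1621 to 2127 higher (2719 with all). All genes called in Rh30 numbered 5066, and 3659 by the separate linear models and 5947 in a fit of all 12 libraries. They numbered 3421 with the replicate block and 3215 without KDM3A-sh2 replicate 1. For the difference between lines, 5151 of 18517 genes were called, and 4950 of 36467 without a filter on low values. With 1 library left out, 4399 to 4757 were called for that difference. Counts of all genes with a 1.5-fold minimum are not given here. Why these values moved was not tested.

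Whether replicate numbers pair the libraries is not stated in the sources used here. Deviations from group means correlated at -0.074 to -0.009 between same-numbered Scramble and KDM3A-sh2 libraries. Between differently numbered ones the correlations were -0.007 to 0.067. No pairing is visible in these values, but they cannot show that libraries were not handled as pairs. With a replicate block, 2 of the 8 tested members were called in RD, 4 in Rh30, 7 between lines and 4 for the difference. Among all genes, 6259 of 17988 were then called in RD and 3421 of 17803 in Rh30. Between lines 13544 of 18357 were called, and for the difference 3993 of 18517. With the block, FYN had adjusted p = 0.154 in RD and 0.00985 in Rh30 (limma). LYN was left out of the tests by the minimum of 1 FPKM, and was 0.717 ± 0.181 FPKM in RD Scramble and 0.109 ± 0.0604 FPKM in Rh30 Scramble (SD, n = 3 each), without overlap.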
